A study of Danio rerio with 2 samples.

Results

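Iridophores are the silvery pigment cells of fish and take their colour from stacked crystals of purines. They arise from the neural crest beside the black melanophores and the yellow xanthophores. The transcription factor tfec acts early and is needed for iridophores in zebrafish. The enzyme pnp4a, a purine nucleoside phosphorylase, acts in purine metabolism and is a common iridophore marker that early pigment progenitors also carry. The homeobox factor alx4 is a marker of iridophores in zebrafish. The 3 gene rows tfec (ENSDARG00000098745), pnp4a (ENSDARG00000057575) and alx4 (ENSDARG00000088332), of 18723 gene rows in all, were followed through the cells of both libraries. They were chosen by name and not by a measured value, but with earlier results of these data known. A second row carries the symbol ALX4 (ENSDARG00000074442), and which paralogue letter belongs to which row was not settled.

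The cells were positive for mitfa:GFP and crestin:mCherry, reporters of pigment progenitors and of neural crest, and were sorted from AB (WT) embryos at 24 hpf. The ErbBi group came from ErbBi-treated embryos and the Untreated group from embryos that were left untreated, and both carried the same reporters. The name ErbBi is taken to mean that ErbB receptors were blocked, and the agent and dose are not given in the sources used here. Single cells made up 1 library per treatment, prepared with 10x Genomics 3′ version 2 chemistry. For the ErbBi library the table lists 348 cells with 1113172 unique molecular identifiers (UMIs) in all and 2732.5 in the median cell. For the Untreated library it lists 999 cells with 7242348 UMIs and 7099 in the median cell. The reporter EGFP was found in 44.8% of ErbBi and 64.3% of Untreated cells, mCherry in 16.7% and 35.7%, and the crest factor sox10 in 46.0% and 79.2%, at these unequal depths. 6 cell barcodes were found in both libraries, and leaving out those cells turned no ratio of the 3 genes round. Which cell belongs to which library was read from the number that ends each cell name and each sample title, and the directions between treatments rest on that reading. Cells are not replicates, so no test between treatments could be made. Every interval below is a 95% interval for counting error only. CPM means UMIs of a gene per 1000000 UMIs of the cells named.

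Cells were divided by other genes than the 3. Melanin-high cells had over 1% of their UMIs in dct, pmela and both TYRP1 rows, genes of melanin synthesis. There were 47 ErbBi and 397 Untreated cells of this class. Cells with over 2% of UMIs in gch2, a pteridine gene of xanthoblasts, numbered 17 in the ErbBi and 123 in the Untreated library (gch2-high). Cells with at least 2 UMIs and over 0.05% of UMIs in twist1a, a factor of crest mesenchyme, numbered 126 in the ErbBi and 83 in the Untreated library (twist1a-high). The foxd3-positive cells, with at least 1 UMI of this early crest factor and in none of those classes, numbered 51 in the ErbBi and 191 in the Untreated library. A further 19 ErbBi and 8 Untreated cells met several of the first 3 rules and were set apart as mixed, and 88 ErbBi and 197 Untreated cells met none. The twist1a-high class held 42.9% of all UMIs in the ErbBi library and 10.8% in the Untreated library, and the melanin-high class 13.0% and 40.1%.

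Of the 3 genes pnp4a had the most UMIs, and its order over the 4 named classes was the same in both libraries. Among ErbBi cells it stood at 1616 CPM in melanin-high cells, 1140 CPM in gch2-high cells, 518 CPM in foxd3-positive cells and 197 CPM in twist1a-high cells. Among Untreated cells the levels were 1438 CPM in melanin-high cells, 887 CPM in gch2-high cells, 347 CPM in foxd3-positive cells and 157 CPM in twist1a-high cells. Every neighbouring pair in this order differed beyond counting error in each library. The closest pair was melanin-high over gch2-high cells, with a ratio of 1.42 (1.05 to 1.93) in the ErbBi library and 1.62 (1.49 to 1.77) in the Untreated library. The cells in none of the classes had 386 CPM (310 to 476) in the ErbBi library, an interval that overlaps that of the foxd3-positive cells (405 to 652). In the Untreated library the cells in none of the classes had 443 CPM (404 to 485), above the foxd3-positive cells (320 to 376). At this stage, then, the highest level of this iridophore marker lay in the cells richest in melanin-gene UMIs.

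The other genes spread differently. Among Untreated cells alx4 was highest in foxd3-positive cells, at 128 CPM (112 to 146). It had 24.2 CPM in twist1a-high cells, 14.0 CPM in gch2-high cells and 9.30 CPM in melanin-high cells. Among ErbBi cells it had 79.1 CPM (39.5 to 142) in foxd3-positive cells, 16.7 CPM in twist1a-high cells, 6.94 CPM in melanin-high cells from 1 UMI, and 0 UMIs in gch2-high cells, where the floor of 3 UMIs allows up to 61.1 CPM. The foxd3-positive cells thus had the highest level of these classes in both libraries, and exceeded twist1a-high and melanin-high cells in each. In the ErbBi library their 11 UMIs could not be told apart from the 0 of gch2-high cells. Below the foxd3-positive cells no neighbouring pair of these classes could be told apart in either library. In the Untreated library twist1a-high cells exceeded melanin-high cells 2.60-fold (1.37 to 4.86).

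Levels of tfec were low throughout, with 17 UMIs in the ErbBi library and 122 in the Untreated library. Untreated foxd3-positive cells had 27.4 CPM (20.1 to 36.4), gch2-high cells 22.4 CPM (12.8 to 36.3), melanin-high cells 8.62 CPM (5.58 to 12.7) and twist1a-high cells 6.37 CPM (2.07 to 14.9). The first pair could not be told apart, and neither could the last pair, but gch2-high cells exceeded melanin-high cells 2.60-fold (1.30 to 5.06). Untreated cells in none of the classes had 26.2 CPM (17.4 to 37.8), near the foxd3-positive level. Of the ErbBi UMIs 9 were in twist1a-high cells, 2 in foxd3-positive cells, 2 in melanin-high cells and 0 in gch2-high cells. No order of the classes could be read from them.

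**Figure D1:**
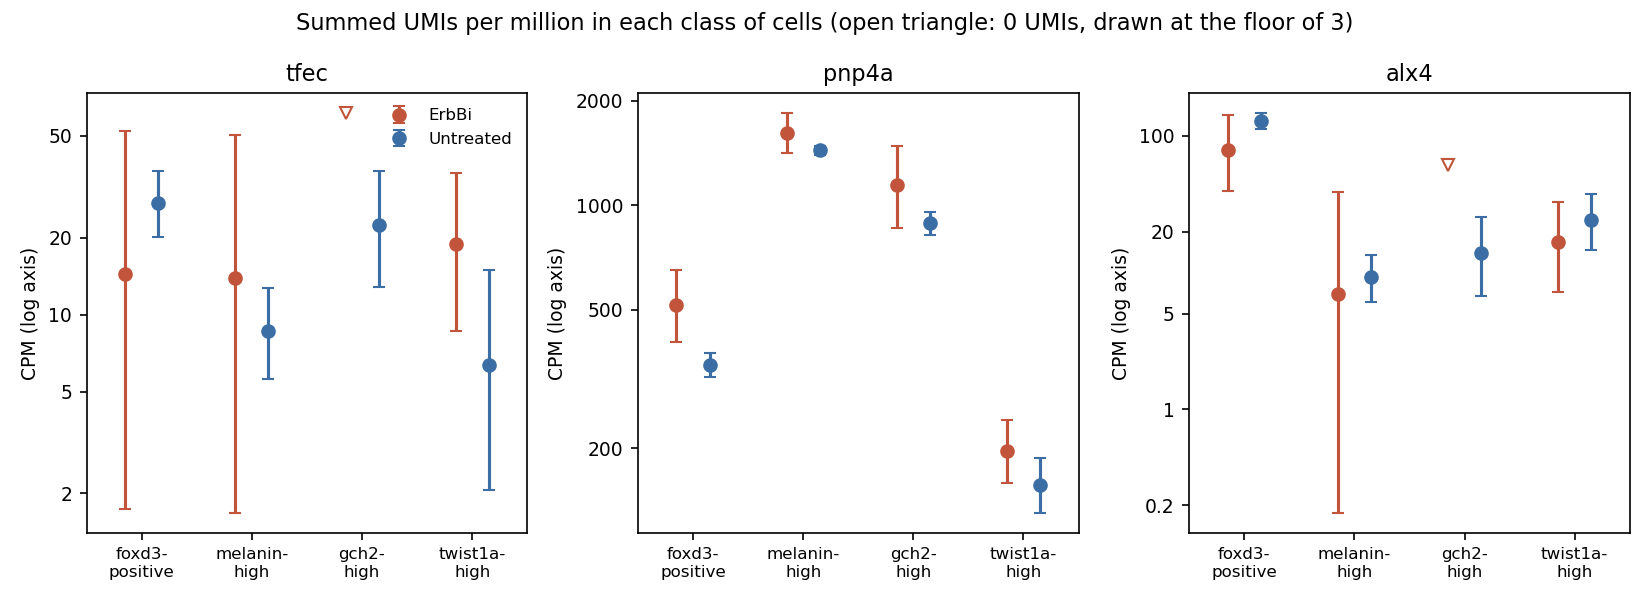
Level of tfec, pnp4a and alx4 (CPM, log axis) in 4 classes of cells, ErbBi in red left of Untreated in blue, with 95% Poisson intervals for counting error. An open triangle marks a class with 0 UMIs, drawn at the floor of 3 UMIs. The gene pnp4a is highest in melanin-high cells in both libraries, and alx4 is highest in foxd3-positive cells.

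The twist1a-high cells served as the cells set against the others, since pigment genes should be low there. Within the Untreated library, foxd3-positive cells exceeded them 4.29-fold for tfec (1.72 to 13.8), 2.21-fold for pnp4a (1.82 to 2.71) and 5.29-fold for alx4 (3.31 to 8.95). So 3 of 3 genes were higher there, where 13.4% of all rows tested were higher and 11.9% lower. Cells in none of the classes also exceeded twist1a-high cells. Their ratios were 4.11 for tfec (1.57 to 13.6), 2.83 for pnp4a (2.31 to 3.48) and 2.78 for alx4 (1.66 to 4.88). The excess was therefore not particular to foxd3-positive cells. In melanin-high cells pnp4a was 9.17-fold higher than in twist1a-high cells (7.67 to 11.1) and alx4 was lower, at a ratio of 0.384 (0.206 to 0.731). Among all rows 21.4% were higher and 25.8% lower in that comparison. In gch2-high cells tfec was 3.51-fold higher (1.23 to 12.3) and pnp4a 5.66-fold higher (4.66 to 6.92), where 16.5% of all rows were higher and 26.6% lower.

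In the ErbBi library, foxd3-positive cells exceeded twist1a-high cells 2.63-fold for pnp4a (1.91 to 3.61) and 4.72-fold for alx4 (1.73 to 13.5), where 5.11% of all rows were higher and 5.76% lower. For tfec the ratio was 0.763 (0.0803 to 3.69) and showed no difference at this depth. The melanin-high cells had 8.21-fold more pnp4a than twist1a-high cells (6.44 to 10.6), with 13.6% of all rows higher and 13.8% lower, and the gch2-high cells 5.79-fold more (4.09 to 8.15), with 7.4% of all rows higher and 6.06% lower.

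The pnp4a of twist1a-high cells was set against pigment genes of other lineages. These cells had 21.4 pnp4a UMIs per 100 dct UMIs (17.0 to 26.8) in the ErbBi library, where all cells together had 24.6. They had 15.5 (12.7 to 18.8) in the Untreated library, where all cells together had 17.8. Per 100 gch2 UMIs the twist1a-high cells had 10.5 pnp4a UMIs (8.43 to 13.0) in the ErbBi library and 10.0 (8.28 to 12.1) in the Untreated library, against 12.8 and 9.78 over all cells. The foxd3-positive cells had 47.7 per 100 dct UMIs and 19.9 per 100 gch2 UMIs in the ErbBi library. In the Untreated library they had 28.7 (26.1 to 31.4) per 100 dct UMIs, but 9.32 (8.55 to 10.1) per 100 gch2 UMIs, as near to all cells as the twist1a-high cells. The part of free RNA in the pnp4a of either class was not tested. The 19 alx4 UMIs of Untreated twist1a-high cells lay in 6 of 83 cells and 9 of them in a single cell.

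To compare how often a gene was found, every cell was first thinned to 1900 UMIs, which kept 280 ErbBi and 946 Untreated cells. A pnp4a UMI was then found in 91.9% of melanin-high, 91.7% of gch2-high, 35.0% of foxd3-positive and 29.6% of twist1a-high cells of the ErbBi library. Among Untreated cells the shares were 88.1%, 73.5%, 34.2% and 35.4% in the same order. In both libraries the intervals of foxd3-positive and twist1a-high cells overlap although the CPM was higher in foxd3-positive cells, so no order of these classes is read from the shares. With cells thinned to 4000 UMIs the Untreated share was 17.2 percentage points higher in foxd3-positive cells, against -1.23 at 1900 UMIs. Before thinning the foxd3-positive shares were 43.1% in the ErbBi library and 77.0% in the Untreated library, and the twist1a-high shares 54.0% and 73.5%, where foxd3-positive cells had medians of 2501 (ErbBi) and 8161 UMIs (Untreated) and twist1a-high cells 3423 (ErbBi) and 9660 UMIs (Untreated).

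A small number of foxd3-positive cells carried much of the pnp4a. Of 191 Untreated cells 15 had 10 or more pnp4a UMIs, up to 41 in a cell, and these 15 cells held 38.6% of the pnp4a UMIs of the class. They had 0 tfec UMIs, where the floor of 3 UMIs allows up to 18.1 CPM. Their alx4 level was 321 CPM (240 to 419), from 53 UMIs in 6 of the 15 cells. In the 44 foxd3-positive cells with 0 pnp4a UMIs, alx4 stood at 65.1 CPM (39.8 to 101), from 20 UMIs in 3 cells. Scaled to 10000 UMIs per cell, the upper quartile of pnp4a over foxd3-positive cells was 8.49 in the ErbBi library and 3.94 in the Untreated library, and the highest cell had 30.4 and 24.8.

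After thinning, an alx4 UMI was found in 12.5% of foxd3-positive cells of the ErbBi library (5 of 40 cells, 4.19% to 26.8%) and in 1.74% of its twist1a-high cells (2 of 115 cells, 0.211% to 6.14%). Among Untreated cells the shares were 10.5% (20 of 190 cells, 6.55% to 15.8%) in foxd3-positive and 3.80% (3 of 79 cells, 0.790% to 10.7%) in twist1a-high cells. The share in foxd3-positive cells could not be told apart between the libraries. With cells thinned to 4000 UMIs the ErbBi difference turned round to -4.55 percentage points, from 0 foxd3-positive and 2 twist1a-high cells with a UMI. A tfec UMI was found in 0 of 40 foxd3-positive cells of the ErbBi library, which allows a share of up to 7.50%. In the Untreated library it was found in 4.74% of foxd3-positive cells (9 of 190 cells, 2.19% to 8.80%) and in 1.27% of twist1a-high cells (1 of 79 cells, 0.0320% to 6.85%), and these intervals overlap.

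The pnp4a level followed the share of melanin-gene UMIs of a cell. Outside the gch2-high and twist1a-high cells of the Untreated library it was 177 CPM (127 to 242) where dct, pmela and TYRP1 made up under 0.25% of UMIs, 290 CPM from 0.25% to 0.5%, 856 CPM from 0.5% to 1%, 1192 CPM from 1% to 2% and 1535 CPM from 2% to 4%. It was 1540 CPM from 4% to 8% and so did not differ from the bin before. In the ErbBi library the levels were 230 CPM, 378 CPM, 1185 CPM, 1896 CPM, 1551 CPM and 1580 CPM in the same bins. The bins from 0.5% to 1%, 1% to 2% and 4% to 8% held under 20 ErbBi cells each. Above 8% there was 1 ErbBi cell with 0 pnp4a UMIs, and 10 Untreated cells had 1257 CPM (942 to 1644). The gene alx4 had 122 CPM (107 to 138) from 0.25% to 0.5% in the Untreated library and 4.60 CPM (1.49 to 10.7) from 2% to 4%. It had 47.4 CPM (5.75 to 171) from 2 UMIs in the 10 cells above 8%.

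**Figure D2:**
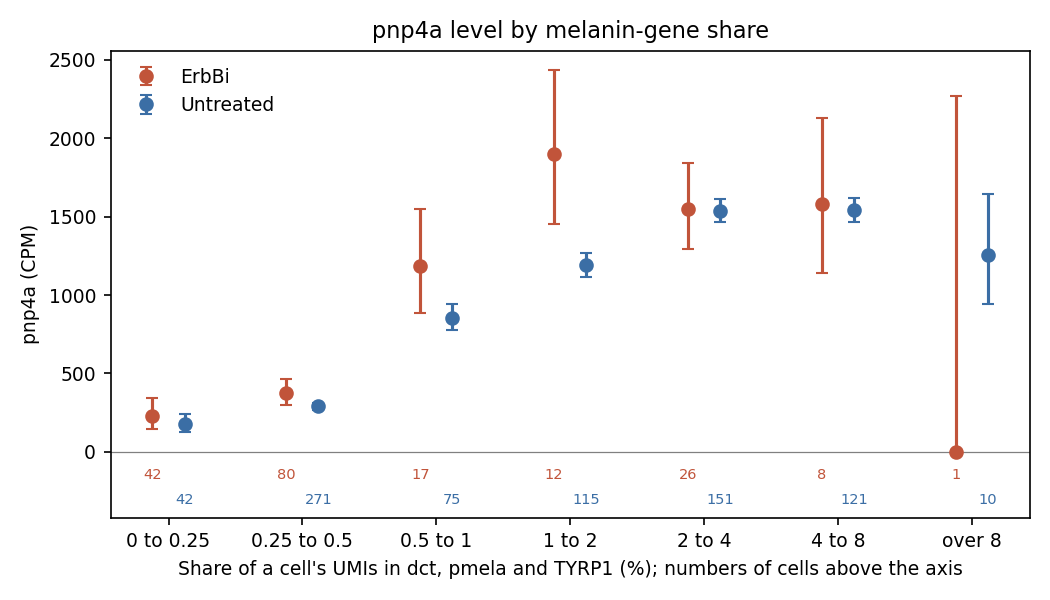
Level of pnp4a (CPM, 95% Poisson interval) by the share of a cell's UMIs in dct, pmela and TYRP1, ErbBi in red left of Untreated in blue. Numbers under the points are cells per bin, gch2-high and twist1a-high cells left out. The level is under 400 CPM up to 0.5% and between 1535 and 1580 CPM from 2% to 8% in both libraries.

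Between the treatments, pnp4a was lower in the ErbBi library over all cells, with 571 CPM (528 to 618) against 835 CPM (814 to 856) in the Untreated library. The ratio was 0.685 (0.630 to 0.743). alx4 was lower too, with 27.0 CPM (18.2 to 38.5) in the ErbBi library and 48.1 CPM (43.1 to 53.4) in the Untreated library and a ratio of 0.561 (0.373 to 0.815). For tfec the levels were 15.3 CPM (8.90 to 24.5) in the ErbBi library and 16.8 CPM (14.0 to 20.1) in the Untreated library, with a ratio of 0.907 (0.511 to 1.51). So 2 of 3 genes were lower, where 9.85% of all rows tested were lower and 23.3% higher.

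Within the 4 named classes the ratio of pnp4a lay above 1. The ratio of ErbBi over Untreated was 1.49 (1.15 to 1.91) in foxd3-positive cells, 1.12 (0.981 to 1.28) in melanin-high cells, 1.29 (0.960 to 1.69) in gch2-high cells and 1.26 (0.949 to 1.66) in twist1a-high cells. Only the first of these 4 intervals excludes 1. In the other cells, in none of the classes, the ratio was 0.871 (0.686 to 1.1). Among all rows 5.44% were higher and 2.94% lower in foxd3-positive cells, 6.4% and 2.05% in melanin-high cells, 4.36% and 1.82% in gch2-high cells, and 10.4% and 4.04% in twist1a-high cells. With each class given the share of UMIs it had in the Untreated library, the levels were 970 CPM in the ErbBi library and 835 CPM in the Untreated library, a ratio of 1.16. The lower level over all cells and the smaller melanin-high share of the ErbBi library thus moved together. The higher level in foxd3-positive cells rests on how the class was cut. Where cells with a foxd3 UMI stayed in it whatever else they carried (85 ErbBi and 386 Untreated cells), the log2 ratio was -0.33 in place of 0.58. The rule of 1 foxd3 UMI also met unequal depths, with class medians of 2501 (ErbBi) and 8161 UMIs (Untreated). The ratio of foxd3 itself was 1.73 (1.40 to 2.13) in the class and 0.885 (0.740 to 1.05) over all cells. The part of depth was not tested.

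For alx4 the ratio within classes was 0.618 (0.304 to 1.13) in foxd3-positive cells, 0.745 (0.0182 to 4.52) in melanin-high cells and 0.692 (0.262 to 1.65) in twist1a-high cells. None of these intervals excludes 1. At the class mix of the Untreated library the levels were 29.3 CPM in the ErbBi library and 48.1 CPM in the Untreated library, a ratio of 0.610, close to that over all cells. The share of thinned cells with an alx4 UMI was 5.0% in the ErbBi library (14 of 280 cells, 2.76% to 8.25%) and 4.44% in the Untreated library (42 of 946 cells, 3.22% to 5.95%), and these intervals overlap. No ratio of tfec within a class excluded 1. In foxd3-positive cells tfec had 14.4 CPM in the ErbBi library against 27.4 CPM in the Untreated library, and in twist1a-high cells 18.8 CPM against 6.37 CPM from 9 and 5 UMIs.

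**Figure D3:**
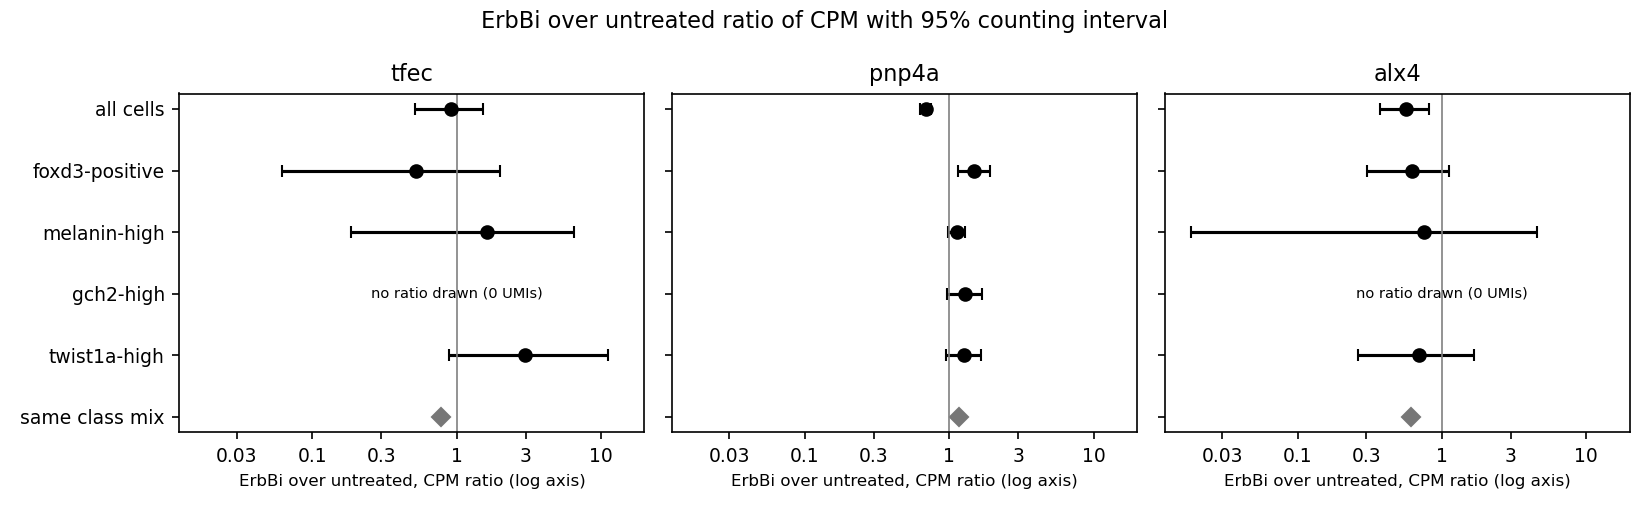
Ratio of CPM, ErbBi over Untreated (log axis), for tfec, pnp4a and alx4 over all cells and in 4 classes, with 95% counting intervals. Grey diamonds give the ratio with every class at its Untreated share of UMIs, with no interval. The ratio of pnp4a is 0.685 over all cells and 1.16 at the same class mix.

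All 3 genes were found together in few cells, and tfec and alx4 were sparse by themselves. Among thinned Untreated cells tfec was found in 3.59% and alx4 in 4.44%. Before thinning, pnp4a was found in 79 of 93 Untreated cells with alx4 (84.9%) and in 752 of 906 without it (83.0%). For tfec the counts were 85 of 104 cells with it (81.7%) and 746 of 895 without it (83.4%). In both pairs the intervals of these shares overlap. Whether all 3 met less or more often than their single shares imply was not tested. After thinning, all 3 were found in 0 of 280 ErbBi cells, which allows a share of up to 1.07%, and in 1 of 946 Untreated cells. Without thinning they were found together in 1 of 348 ErbBi cells and 14 of 999 Untreated cells, and 10 of the 14 were foxd3-positive. Among thinned Untreated cells, tfec was found in 2.38% of cells with alx4 (1 of 42 cells, 0.0603% to 12.6%) and in 3.65% of cells without it (33 of 904 cells). Without thinning the shares were 19.4% (11.9% to 28.8%) and 9.49% (7.66% to 11.6%). No association of tfec with alx4 was detectable in the thinned cells. In foxd3-positive Untreated cells pnp4a was found in 60.0% of thinned cells with alx4 (12 of 20 cells, 36.1% to 80.9%) and in 31.2% of those without it (53 of 170 cells, 24.3% to 38.7%). Without thinning the shares were 93.3% (81.7% to 98.6%) and 71.9% (63.9% to 79.0%). The gap of 28.8 percentage points between thinned cells was 1.78 with cells thinned to 4000 UMIs and 4.76 without called doublets. Thinning without doublets also drew UMIs anew, so the 4.76 does not show the part of doublets alone. The size of the gap is not settled by these shares.

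The alx4 UMIs of the Untreated library were packed into few cells. 35 cells had 3 or more, up to 19 in a cell, and held 80.2% of the 348 alx4 UMIs. Of these 35 cells, 24 were foxd3-positive, 6 were other cells, 2 were melanin-high, 2 twist1a-high and 1 gch2-high. In the ErbBi library 2 cells had 3 or more alx4 UMIs and the highest count was 4, at a lower depth. The threshold of 3 was chosen after these counts had been seen.

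Several other rows of the iridophore list were higher in the alx4-rich cells, but the sum of its UMIs was not. Summed over its rows other than alx4 the list had 4253 CPM there and 4859 CPM in the cells with 0 alx4 UMIs. That ratio was 0.875 (0.832 to 0.920), and within foxd3-positive cells it was 1.34 (1.25 to 1.43). Over the Untreated classes the whole list had 12822 CPM in gch2-high cells and 3578 CPM in foxd3-positive cells. Such sums rest mostly on AKR1B1 (ENSDARG00000006215), pnp4a and IMPDH1 (ENSDARG00000029524). These rows held 19428, 6044 and 5425 of the 34539 Untreated UMIs of the list. In the 35 cells apoda.1, which encodes a relative of apolipoprotein D, had 1080 CPM, against 24.7 CPM in the 906 Untreated cells with 0 alx4 UMIs, a ratio of 43.7 (36.3 to 52.9). It was found in 23 of the 35 cells. The melanosome and pigment cell glycoprotein GPNMB was 31.1-fold higher (19.1 to 51.6), the homeobox gene ALX1 28.8-fold (10.4 to 86.2), the cadherin CDH11 17.2-fold (10.6 to 28.1) and the receptor kinase ltk, which acts in iridophore fate, 12.0-fold (3.0 to 43.9) from 5 and 7 UMIs. The second ALX4 row had 14 UMIs in these cells and 4 in the cells with 0 alx4 UMIs, and FHL2, a LIM domain gene, had 8 and 3. Of the 18 measured rows of the iridophore list other than alx4, 9 were higher and 3 lower, where 9.77% of all rows were higher and 6.96% lower. Of the 18 rows 14 had 10 or more UMIs in the cells with 0 alx4 UMIs, with 5 higher and 3 lower. The other 4, ALX1, ltk, FHL2 and the second ALX4 row, passed the minimum of 10 UMIs only with the alx4-rich cells, so their calls are no support. The shares of all rows were not limited in this way, so the count among the 14 rows has no like share beside it. The 9 also hold TJP1, a tight junction gene, and the purine gene ATIC. The lower rows were pnp4a at 0.679 (0.592 to 0.776), IMPDH1 (ENSDARG00000029524) and AKR1B1 (ENSDARG00000006215).

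Within foxd3-positive cells pnp4a took the other direction. It had 619 CPM in the 24 alx4-rich cells and 306 CPM in the 146 cells with 0 alx4 UMIs, a ratio of 2.02 (1.67 to 2.43). The 21 cells with 1 or 2 alx4 UMIs had 247 CPM (186 to 323), no higher than the cells with 0. Between the alx4-rich cells and those with 0, 6 of 10 purine synthesis rows were higher in the former and 0 were lower. The 6 were ATIC at 2.62 (2.03 to 3.38), PFAS at 1.94, PAICS at 1.84, ADSL at 1.73, GMPS at 1.49 and PPAT at 1.41. Of 13 iridophore rows other than alx4, 6 were higher, with apoda.1 at 64.5 (42.6 to 102), and 1 was lower, AKR1B1 (ENSDARG00000006215) at 0.477. Of the 10 rows with 10 or more UMIs in the cells with 0 alx4 UMIs, 3 were higher, pnp4a, apoda.1 and ATIC. No share of all rows under this limit is given beside that count. ATIC belongs to both lists, so the purine and iridophore counts share it. Median depth was 9339 UMIs in the alx4-rich cells and 7616 in the cells with 0 alx4 UMIs, and its part was not tested. Among all rows 5.38% were higher and 4.2% lower. tfec did not differ, with 34.0 CPM in the alx4-rich cells and 25.9 CPM in the cells with 0 alx4 UMIs from 9 and 32 UMIs, a ratio of 1.31 (0.550 to 2.81).

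Several regulators and markers of the other pigment lineages were lower in those cells. Of 11 regulator rows 7 were lower and 0 higher, where 4.2% of all rows were lower and 5.38% higher. Among the 7 were MITF (ENSDARG00000003732) of the melanocyte lineage at 0.578 (0.439 to 0.750) and the AP-2 factor TFAP2A at 0.527. Both PAX7 rows, which belong to xanthophore genes, were at 0.184 and 0.538, and FOXD3 was at 0.648. By the rule of the class each cell compared has at least 1 foxd3 UMI. Median depth was 9339 UMIs in the alx4-rich cells and 7616 in the cells with 0 alx4 UMIs. The FOXD3 ratio is therefore no support. The other 4 regulator rows did not pass. The xanthoblast list had 6 of 7 rows lower and the melanoblast list 4 of 10. Of the melanoblast list 6 rows had an interval that included 1, and 0 rows were higher in either list. Both PAX7 rows are also in the xanthoblast list, so its count shares them with that of the regulators. Of the mesenchyme list 0 of 4 rows differed. Summed over their rows, the lists of other cell types had the following levels. The neuron list had 98.1 CPM in the alx4-rich cells and 96.4 CPM in the cells with 0 alx4 UMIs, the neural tube list 75.5 and 58.3 CPM, the erythroid list 22.6 and 32.4 CPM, the epidermis list 151 and 219 CPM and the macrophage list 18.9 and 17.0 CPM, with 7 of 10 macrophage rows and 2 of 3 erythroid rows at 0 in the alx4-rich cells.

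**Figure D4:**
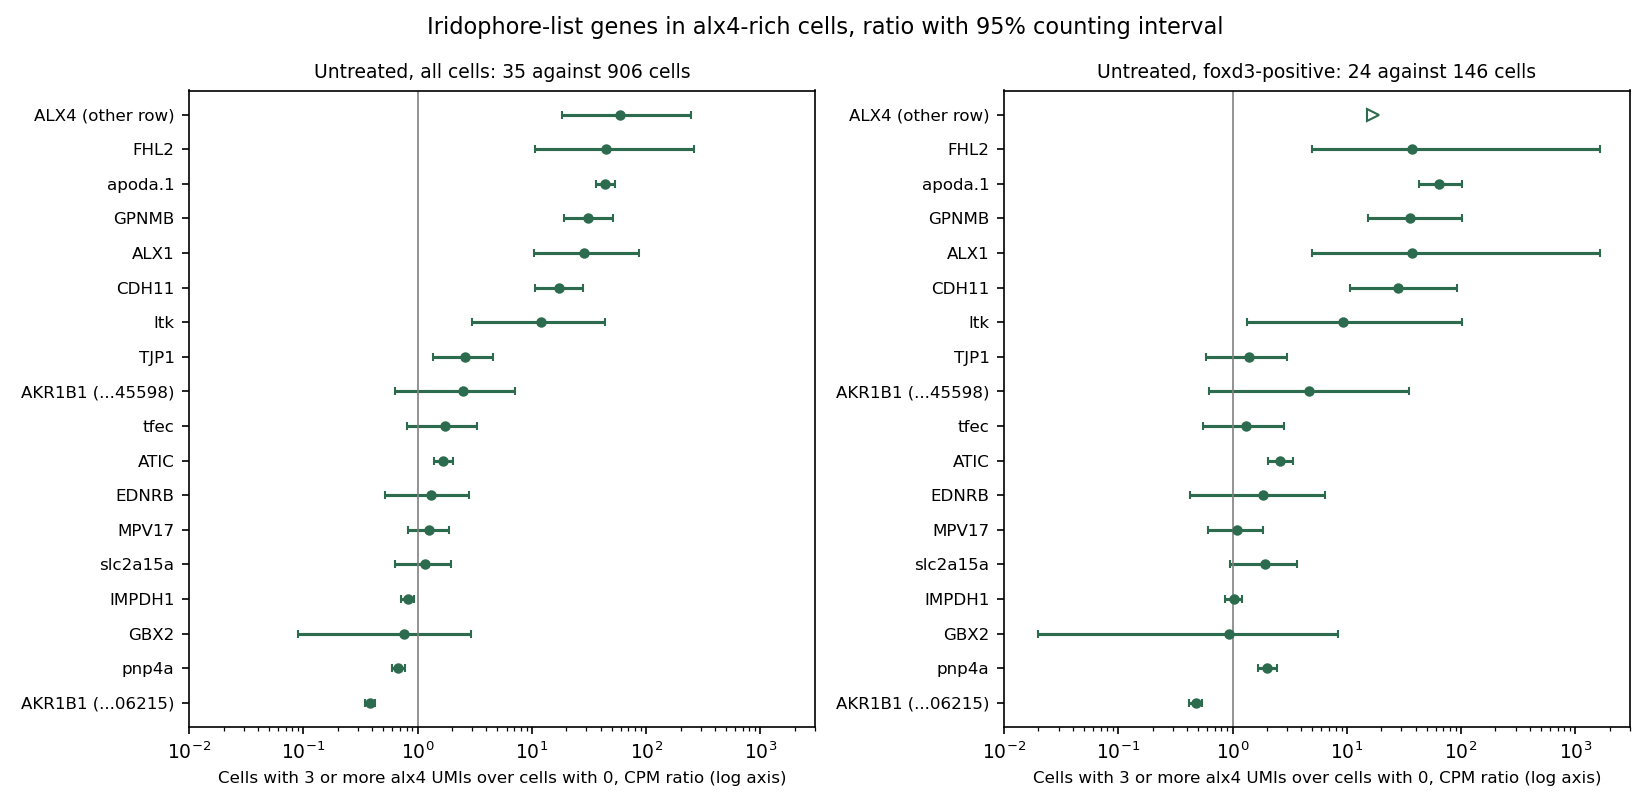
Ratio of CPM (log axis) for iridophore-list rows between Untreated cells with 3 or more alx4 UMIs and Untreated cells with 0, over all cells (left) and within foxd3-positive cells (right), with 95% counting intervals. The open arrow is a lower bound, with the floor of 3 UMIs in place of 0. apoda.1 is 43.7-fold and 64.5-fold higher, and pnp4a is lower over all cells but higher within foxd3-positive cells.

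In the ErbBi library the split was made at 1 alx4 UMI, since 2 cells had 3 or more. In its 20 cells with an alx4 UMI apoda.1 had 742 CPM, against 21.9 CPM in its 328 cells without one, a ratio of 33.9 (20.2 to 58.4). GPNMB was 6.37-fold higher (1.78 to 19.1) and ALX1 6.63-fold (1.52 to 23.0). Over the whole ErbBi library FHL2 had 0 UMIs, the second ALX4 row 3 and ltk 4, too few to compare. Of 14 iridophore rows 5 were higher and 0 lower, where 2.1% of all rows were higher and 0.905% lower. The purine rows ATIC, PAICS and GMPS were 2.58-fold, 2.03-fold and 2.18-fold higher. pnp4a had 46 and 590 UMIs in these 2 sets of cells and a ratio of 1.29 (0.936 to 1.75).

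Cells with a tfec UMI were set against those without one. In the Untreated library 104 cells had one, and 15 had 2 or more. Of the 18 iridophore rows other than tfec 7 were higher and 1 lower than in the 895 cells without tfec. Of 11 purine rows 5 were higher and 0 lower, where 4.1% of all rows were higher and 3.95% lower. IMPDH1 (ENSDARG00000029524) and ATIC are in both lists, so these counts share them. The higher iridophore rows were alx4 at 1.42 (1.05 to 1.89), GPNMB at 3.75, IMPDH1 (ENSDARG00000029524) at 1.38, slc2a15a at 1.55, apoda.1 at 1.28, AKR1B1 (ENSDARG00000006215) at 1.19 and ATIC at 1.37. The alx4 UMIs of the cells with tfec lay in 18 of the 104 cells. Of 13 regulator rows 3 were higher, the crest factor PAX3 (ENSDARG00000010192) at 2.97 and the PAX7 rows at 2.34 and 2.02, 2 were lower, TFAP2A at 0.781 and TFAP2E at 0.804, and 8 included 1. PAX3 is also the row with the highest r with tfec in these cells, so its ratio is a description. Of the xanthoblast list 7 of 9 rows were higher, gch2 at 1.28 (1.26 to 1.31), and of the melanoblast list 8 of 10 were lower. Both PAX7 rows are also in the xanthoblast list, so its count shares them with that of the regulators.

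Within foxd3-positive cells 3 of 13 iridophore rows were higher and 1 lower in the 34 cells with tfec than in the 157 without it, and 2 of 11 purine rows were higher. Of the xanthoblast list 3 of 8 rows were higher and 1 lower there, and its summed ratio was 1.02 (0.968 to 1.08), against 1.32 (1.29 to 1.34) over all cells. Among all rows 3.65% were higher and 3.81% lower. Over all Untreated cells pnp4a had 626 CPM in cells with tfec and 863 CPM in cells without it, a ratio of 0.725 (0.663 to 0.791). Its ratio within foxd3-positive cells was 0.70 (0.553 to 0.879). Within foxd3-positive cells alx4 had 132 CPM (114 to 153) with 0 tfec UMIs, 89.2 CPM (55.9 to 135) with 1 and 163 CPM (93.4 to 265) with 2 or more. These intervals overlap, so the higher alx4 level over all cells was not seen within this class. Depth moved with this split, with medians of 8008 UMIs in cells with 1 tfec UMI and 6983 in cells with 0, and its part in these differences was not tested.

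In the 16 ErbBi cells with tfec, 1 of 14 iridophore rows was higher and 2 lower, and of the xanthoblast list 0 of 7 rows were higher and 1 lower, where 2.69% of all rows were higher and 1.08% lower. apoda.1 was 2.67-fold higher (1.27 to 5.13) from 11 UMIs in a single cell. The difference between the libraries was not tested.

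The genes with the most similar pattern over cells were ranked by Pearson r of log2(UMIs per 10000 + 1) over the 999 Untreated cells, among 5034 genes found in at least 10% of them. Cells share a library and differ in depth, so r is a description. For pnp4a the first 6 were gstp1.2 at 0.62, SLC37A2 at 0.61, SMIM29 at 0.60, tspan36 at 0.59, TYRP1 (ENSDARG00000056151) at 0.58 and ATP6V1G1 at 0.56, and over the 348 ErbBi cells r lay from 0.43 to 0.50. For alx4 they were apoda.1 at 0.45 and defbl1 at 0.43, with 0.46 and 0.41 over the ErbBi cells, followed by NRP2, PLPP3, mmp17b and tuba1b at 0.24 to 0.30, which fell to between -0.070 and 0.11 over the ErbBi cells. For tfec they were PAX3, PIM3, ID3, RDH8, HOXD9 and EGFP at 0.16 to 0.23, and from -0.085 to 0.093 over the ErbBi cells, values too weak to read in counts this sparse. Between the 3 genes themselves r lay between -0.098 and 0.096 in both libraries.

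Over all cells, the wider gene lists differed between the treatments as follows, where 23.3% of all rows tested were higher and 9.85% lower. Of 19 iridophore rows with at least 10 UMIs, 6 were higher in the ErbBi library, among them ALX1 at 4.55 (2.13 to 9.48) and CDH11 at 2.84 (1.84 to 4.29), and 5 were lower, among them ATIC at 0.711 (0.599 to 0.839). Their median log2 ratio was -0.14, or 0.12 with 3 UMIs in place of the single 0, so its sign is not fixed. The median of all 12248 rows was 0.22. Of 11 purine rows 1 was higher and 6 lower (median -0.40), with PAICS at 0.673 (0.616 to 0.735). Among the lower rows, ATIC and IMPDH1 (ENSDARG00000029524) are in both the iridophore and the purine list. Of 13 regulator rows 1 was higher, SOX5, and 6 lower (median -0.25), with MITF at 0.484 (0.433 to 0.541). Of 10 melanoblast rows 7 were lower and of 9 xanthoblast rows 5, with medians of -0.84 and -0.74 and 0 rows higher in either.

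Of 8 mesenchyme rows 7 were higher and 0 lower (median 2.05), and of 7 neural crest rows 1 was higher and 3 lower. For the remaining lists, 3 of 5 neuron rows were higher and 2 lower, and 2 of 7 neural tube rows higher and 0 lower. Further, 1 of 5 epidermis rows was higher and 3 lower, and 4 of 7 macrophage rows higher and 0 lower. Of 2 erythroid rows 0 were higher and 2 lower. Among all rows 23.3% were higher and 9.85% lower, and a count near these shares is not read as a difference of its list. Summed over its rows, the mesenchyme list had 1447 CPM in the ErbBi library and 325 CPM in the Untreated library, the neuron list 151 and 56.9 CPM, the neural tube list 116 and 77.6 CPM, the epidermis list 301 and 317 CPM, the macrophage list 155 and 24.3 CPM and the erythroid list 1.80 and 424 CPM. The class mix differed between the libraries along with these lists, and beyond the levels at the same class mix given above, the part of these cells in the levels of the 3 genes was not tested.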

How the data were processed

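Single cells of 1 ErbBi and 1 Untreated library were analysed. The deposited values are UMI counts per gene and cell, from Cell Ranger 2.1.1 on GRCz11, with FastQC 0.11.7 also named, per the submitters' processing notes. The authors' filtered table is a subset of their unfiltered table, with 0 values that differed, and every cell kept had at least 701 genes. 0 columns were left unused. Library identity was read from the number that ends each cell name and each sample title, and every ErbBi over Untreated direction would turn round if that reading were wrong. Symbols came from a name table that matched 17967 of 18723 rows (96.0%), mostly in human style. Reads of paralogues such as the ALX4, PAX7 and TYRP1 rows may have been split between rows.

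UMIs were summed per class and divided by the total of those cells. Intervals are exact Poisson for CPM, Clopper-Pearson for shares and conditional binomial for ratios, at 95%, and a difference was called where the interval excluded 1, among rows with at least 10 UMIs. For shares, 1900 UMIs were drawn at random from each cell (the 10th percentile of depth, rounded down), which left out 68 ErbBi and 53 Untreated cells. A count of 0 was set to a floor of 3. Scrublet (scanpy 1.11.5) called 2 ErbBi and 7 Untreated doublets, which stayed in the main values. Genes named are the 3 genes, rows of the lists with at least 10 UMIs, and the 6 genes with the highest r per gene. The genes and lists were chosen with earlier results of these data known. Some rows are in several lists, such as ATIC, IMPDH1 and the PAX7 rows, so counts of different lists share rows. The ratio code was tested on simulated data for ErbBi over Untreated over 18723 rows. Of 200 rows changed 4-fold, 196 were called in the right direction, and 3.15% of unchanged rows were called. The simulated counts were Poisson with no variation between cells, so this share does not cover genes packed into few cells. Alternatives covered scaling, weighting of cells, filtering, doublets, class limits and thinning. No genome sequence was used. Python 3.11.15, NumPy 2.4.6, pandas 2.3.3 and SciPy 1.17.1 were used.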

Additional observations from a re-analysis of the deposited data

How the results depend on the processing

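No paired analysis was possible because there is a single library per treatment, and none could be left out. Where a count was 0, or under 50 genes could scale a class, an alternative gave no value. Depth limits tfec and the ErbBi classes most. Of 432 recomputed values, 396 stayed within the interval of the value reported, 33 moved outside it and 3 differences beyond counting error turned round. Median-of-ratios scaling shifted all rows by 0.14 on the log2 scale over all cells. It took the log2 ratio of pnp4a, ErbBi over Untreated, to -0.69. At the class mix of the Untreated library that log2 ratio turned to 0.22 (an alternative added after seeing the data). In foxd3-positive cells the log2 ratio of pnp4a was 1.07 with 2 or more foxd3 UMIs and -0.33 with overlapping classes. In twist1a-high cells it was 0.75 with overlapping classes.

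With overlapping classes the log2 ratio of pnp4a over twist1a-high cells was 0.77 (foxd3-positive), 2.16 (melanin-high) and 1.69 (gch2-high) in the ErbBi library and 1.85, 2.83 and 2.13 in the Untreated library, and that of alx4 in foxd3-positive Untreated cells 1.64. With twist1a-high at over 0.1%, the log2 ratio of alx4 in foxd3-positive over twist1a-high ErbBi cells was 4.17. That of ErbBi over Untreated in twist1a-high cells was -2.54. With gch2-high at over 4%, the log2 ratio of alx4 in gch2-high over twist1a-high Untreated cells was -3.40.

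Differences in share from twist1a-high cells, in percentage points, moved with thinning. At 4000 UMIs the ErbBi differences were -9.09 for tfec in foxd3-positive and in gch2-high cells, -4.55 for alx4 in foxd3-positive cells (turned round) and in melanin-high cells, and 38.6 for pnp4a in melanin-high cells. The Untreated differences in foxd3-positive cells were then 17.2 for pnp4a and 13.0 for alx4. At 1000 UMIs pnp4a in gch2-high ErbBi cells was at 32.0. Without thinning, pnp4a was at -10.8 (foxd3-positive) and 37.5 (melanin-high) in the ErbBi library and at 24.0 (melanin-high) and 15.9 (gch2-high) in the Untreated library, and foxd3-positive Untreated cells were at 11.8 for tfec and 16.3 for alx4.

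Co-detection values of the Untreated library, in percentage points, moved as well. tfec with minus without alx4 was 9.86 over all cells without thinning and -3.76 in the unfiltered table, where foxd3-positive cells gave -5.99. pnp4a with minus without alx4 in foxd3-positive cells was 1.78 at 4000 UMIs and 4.76 without doublets. Thinning without doublets and in the unfiltered table also drew UMIs anew. pnp4a with minus without tfec was 25.9 over all cells at 1000 UMIs and -38.6 in foxd3-positive cells with another seed. The counts of iridophore rows higher in alx4-rich cells stayed at 9 and 6 with 2 or 5 alx4 UMIs, without doublets and without shared barcodes. They include rows that passed the minimum of 10 UMIs only with the alx4-rich cells. Without those rows the counts were 5 of 14 and 3 of 10, and these were not recomputed under the alternatives. Of the 6 genes most like each gene, thinning shared 4 for pnp4a, 3 for alx4 and 2 for tfec, and Spearman's rho 5, 3 and 5.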

Other observations

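The defensin-like gene defbl1, which no list held and which was named for its r with alx4 in these same Untreated cells, had 1188 CPM in the 35 alx4-rich Untreated cells and 17.2 CPM in those with 0 alx4 UMIs, 69.3-fold higher (56.1 to 86.2). It lay in 19 of the 35 cells, with 99 of its UMIs in a single cell. In the ErbBi library it was 28.4-fold higher (19.2 to 42.6) in cells with an alx4 UMI.

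The cells that the authors' filter left out also carried these genes. The 149 ErbBi cells left out had 519 CPM of pnp4a (389 to 679) and the 23 Untreated cells left out 590 CPM (355 to 922). Of the 149 ErbBi cells, 57 shared a barcode with an Untreated cell, and how many of their UMIs belong to the Untreated library was not tested. alx4 had 5 UMIs in 3 of the ErbBi cells left out and 0 UMIs in the Untreated cells left out.

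Before the authors' filter both libraries shared 75 barcodes, among 497 ErbBi cells. These 75 cells had a median of 533 UMIs in the ErbBi library and 14971 in the Untreated library, with 6 alx4 UMIs in the ErbBi cells and 79 in the Untreated cells.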
